A study of Sus scrofa with 8 samples.

Results

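SFRP2 (ENSSSCG00000009004), PTGDS (ENSSSCG00000040080), ALDOC (ENSSSCG00000017759) and AK5 (ENSSSCG00000003773) are 4 of the 35683 genes counted in nuclei of pig retinas after intravitreal AAV. They were chosen by their UMI counts in AAV-injected against vehicle-injected retinas, as genes with lower levels after AAV. The comparison of AAV with vehicle is therefore given for these 4 genes as a description, with no test. Each gene was followed in every cell class of every retina, on one scale relative to the RNA of the class and on another per nucleus, to set its level in Müller and astrocyte nuclei beside its level in nuclei of other classes.

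The retinas came from female Yucatan minipigs aged 3 to 5 months. All animals, those of the vehicle groups included, received intravitreal Vitrase, a hyaluronidase, 2 weeks before dosing, and methylprednisolone at 5 mg/kg into the muscle each week. Both eyes then received vehicle or 5e11 vector genomes of AAV2.7m8/CAG-GFP, a capsid variant that carries GFP under a ubiquitous promoter. The week 2 groups are the left and right eye of 1 AAV-injected and of 1 vehicle-injected animal, sacrificed on day 15, so that they give no spread between animals. The week 4 groups are the left eyes of 2 AAV-injected and of 2 vehicle-injected animals, sacrificed on day 24 or day 28. In the labels every group has a separate batch, and batch and treatment cannot be told apart. Globes were frozen, nuclei were sorted by their DAPI stain, and each retina was loaded on 4 lanes of a 10x chip. Counts are of unique molecular identifiers (UMIs), so that copies of 1 molecule count as 1.

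The genes differ in what they encode. SFRP2 is a secreted protein that binds Wnt ligands and modulates their signaling. PTGDS, the lipocalin-type prostaglandin D synthase, is secreted, makes prostaglandin D and carries retinoids. ALDOC is the brain form of aldolase, an enzyme of glycolysis known as a marker of astrocytes. AK5 is an adenylate kinase of nervous tissue that balances the adenine nucleotides. Müller glia span the whole thickness of the retina and serve its neurons, whereas retinal astrocytes lie among the axons of the ganglion cells.

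A droplet that holds a nucleus also takes up RNA that is free in the suspension, and the UMIs of a glial gene in a rod nucleus can be of this kind. Rods, the most numerous nuclei, are therefore the class set beside the glia here. No value below tells an UMI of a nucleus from one of free RNA.

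In the RefSeq annotation of Sscrofa11.1, SFRP2 lies on chr8:75337311-75345926 on the plus strand with 3 exons. ALDOC lies on chr12:44823376-44827273 on the minus strand with 9 exons, and AK5 on chr6:135745879-136020585 on the minus strand with 14 exons. The end of AK5 overlaps ZZZ3 by 141 bases on the opposite strand. PTGDS has 7 exons over 2806 bases on a scaffold that is not placed on a chromosome. The 250 bases before each annotated start are shown because the 4 genes were chosen for moving together at week 4. Capitals mark matches on either strand to any of 5 motifs. The TATA box was searched as TATAAA. The GC box was searched as GGGCGG, and the CCAAT box by the letters of its name. The core of the hypoxia response element was searched as ACGTG and the STAT site as TTCNNNGAA. No match overlapped another.
SFRP2: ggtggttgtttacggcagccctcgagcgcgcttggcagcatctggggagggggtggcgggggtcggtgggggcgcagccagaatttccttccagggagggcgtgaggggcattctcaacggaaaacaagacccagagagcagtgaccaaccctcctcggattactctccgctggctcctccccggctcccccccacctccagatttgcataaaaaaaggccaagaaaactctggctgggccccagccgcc
PTGDS: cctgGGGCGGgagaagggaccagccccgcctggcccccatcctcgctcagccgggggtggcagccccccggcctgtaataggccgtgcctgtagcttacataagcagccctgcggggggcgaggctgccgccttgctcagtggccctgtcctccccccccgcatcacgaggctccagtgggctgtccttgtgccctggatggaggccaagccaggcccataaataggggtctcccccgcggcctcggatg
ALDOC: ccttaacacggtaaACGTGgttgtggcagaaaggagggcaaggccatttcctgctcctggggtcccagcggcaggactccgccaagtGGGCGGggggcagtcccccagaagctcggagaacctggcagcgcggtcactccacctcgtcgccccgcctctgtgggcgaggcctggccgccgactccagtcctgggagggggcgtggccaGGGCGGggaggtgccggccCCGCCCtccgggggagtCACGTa
AK5: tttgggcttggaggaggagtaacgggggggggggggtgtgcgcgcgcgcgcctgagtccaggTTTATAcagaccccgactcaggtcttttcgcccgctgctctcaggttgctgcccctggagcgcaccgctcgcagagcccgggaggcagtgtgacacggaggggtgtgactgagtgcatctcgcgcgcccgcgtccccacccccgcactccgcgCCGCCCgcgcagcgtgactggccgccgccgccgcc
The windows share no motif across all 4 genes. SFRP2 held none of the motifs searched. PTGDS held a GC box 246 bases before its start. ALDOC held GC boxes at 163, 42 and 23 bases and the hypoxia core at 236 and 6 bases before its start, and AK5 held a TATA box at 188 and a GC box at 35 bases. Of 20667 RefSeq promoters of the same length, 44.4% held the GC box, 18.2% the hypoxia core, 10.4% the TATA box, 32.0% the CCAAT box and 6.38% the STAT site. A match is a description of letters and not of binding.

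The lanes held 388491 barcodes, of which 350537 were kept and 258406 (73.7%) were placed in a cell class by marker genes. Each retina gave between 121544835 and 173614051 UMIs. Of the barcode sequences, 5.11% occurred in more than 1 lane and 17084 in more than 1 retina. All 10 rod markers and all 8 astrocyte markers were highest in their own class, but only 5 of the 10 Müller markers were. RLBP1, RGR and CA14 were higher in the retinal pigment epithelium (RPE), and SOX9 and LHX2 in astrocytes. The nuclei were placed by these same markers, other than GFAP, so that this is no independent check of the classes. Müller nuclei made up 2.15% ± 1.28 (SD, n = 2) of kept nuclei after AAV and 10.4% ± 1.15 after vehicle at week 4 (two-sided exact permutation test, p = 0.33, the smallest that 2 against 2 allows). Rods made up 45.0% ± 4.06 and 27.4% ± 8.59 (exact permutation test, p = 0.33). At week 2 the Müller share was 9.78% ± 0.137 and 10.2% ± 1.09, where the SD is between the 2 eyes of 1 animal per arm. In sums over a whole retina, fewer Müller cells and less RNA per Müller cell cannot be told apart.

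The nuclei placed as Müller in the AAV-injected retinas also had more UMIs per nucleus. Their median was 5244 and 5408 UMIs per nucleus in the 2 AAV-injected retinas of week 4, and 2195 and 1978 in the vehicle-injected ones. Rods moved less, from 1486 and 1527 to 1942 and 2218. Under a stricter margin between classes the Müller medians were higher, at 5693.5 and 5819 after AAV and 2467 and 2233 after vehicle. Müller nuclei of 1000 to 2000 UMIs numbered 32 and 12 after AAV and 1525 and 1952 after vehicle. The part of the placing by markers in these depths was not tested. Levels are therefore given below on a pair of scales, as CPM, the gene's UMIs per 1000000 UMIs of its class, and as UMIs per nucleus.

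SFRP2 was highest in Müller nuclei and astrocytes in all 4 groups. In Müller nuclei at week 4 it stood at 847 and 1048 CPM after AAV and at 1784 and 1359 CPM after vehicle. PTGDS stood at 413 and 426 CPM against 548 and 624 CPM. Both AAV-injected retinas lay below both vehicle-injected ones for each of these genes. ALDOC stood at 25.6 and 25.2 CPM after AAV and at 63.9 and 56.5 CPM after vehicle. AK5 stood at 4.53 and 3.73 CPM after AAV, from 36 and 12 UMIs, and at 130 and 147 CPM after vehicle, from 1341 and 1535 UMIs. So all 4 genes were lower in both AAV-injected retinas, as were 31.5% of the 17230 genes tested in Müller nuclei, and the difference was largest for AK5. The edgeR log2 fold changes, AAV over vehicle, were -0.74 ± 0.165 (SE) for SFRP2, -0.49 ± 0.118 for PTGDS, -1.25 ± 0.140 for ALDOC and -5.03 ± 0.180 for AK5.

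**Figure D1:**
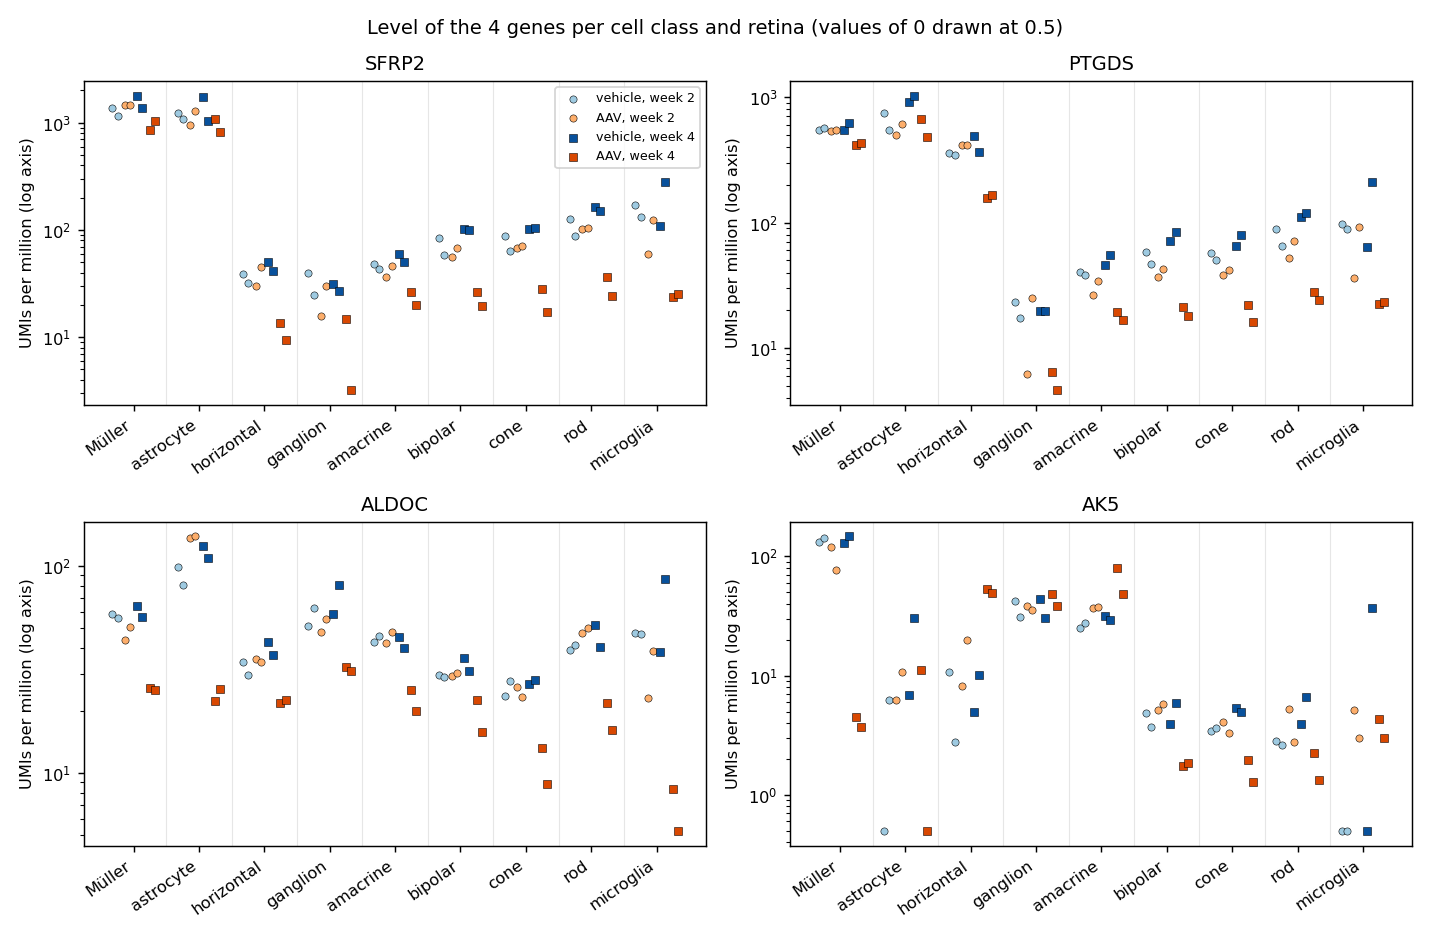
Level of each gene in CPM (log axis) in 9 cell classes, 1 symbol per retina, with week 2 as circles, week 4 as squares, vehicle in blue and AAV in orange. At week 4 both AAV-injected retinas lay below both vehicle-injected ones in most classes for SFRP2, PTGDS and ALDOC. The share of all genes that lay so ran from 21.4% in horizontal cells to 36% in rods. AK5 lay so in 4 of the 7 classes fitted by edgeR and was higher in 2. In horizontal cells AK5 was at 53.0 and 49.6 CPM after AAV and at 4.93 and 10.1 CPM after vehicle.

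At week 2 the Müller levels lay nearer to each other. SFRP2 was at 1448 and 1468 CPM in the eyes of the AAV-injected animal and at 1358 and 1152 CPM in those of the vehicle-injected animal, a log2 ratio of means of 0.22. PTGDS was at 534 and 543 against 547 and 562 CPM, a log2 ratio of -0.04. ALDOC was at 44.0 and 50.9 against 58.5 and 55.9 CPM, a log2 ratio of -0.27. AK5 was at 119 and 77.2 against 133 and 141 CPM, a log2 ratio of -0.48. With 1 animal per arm, these differences cannot be set against a spread between animals. SFRP2 was thus higher in both eyes of the AAV-injected animal at week 2, as were 36.3% of genes, and the other 3 genes lower, as were 25.3%. The sign of 2 of these changed with the processing, as SFRP2 was at a log2 ratio of -0.0078 against vehicle animals of both weeks, and PTGDS at 0.024 with a stricter margin between classes.

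Per nucleus, the order of the groups changed for SFRP2 and PTGDS. A Müller nucleus held 4.55 and 5.75 UMIs of SFRP2 in the AAV-injected retinas of week 4 and 4.39 and 3.08 in the vehicle-injected ones. It held 2.22 and 2.34 UMIs of PTGDS after AAV and 1.35 and 1.41 after vehicle. On this scale both genes were higher after AAV. Deeper nuclei hold more UMIs on this scale, and the share of all genes higher on it was not computed. ALDOC was at 0.138 in both AAV-injected retinas and at 0.157 and 0.128 UMIs per nucleus after vehicle, so that the groups overlapped. AK5 alone was lower on both scales, at 0.0243 and 0.0205 UMIs per nucleus after AAV and at 0.320 and 0.3329 after vehicle, a vehicle level 14.6 times that after AAV. Under 5 other ways of choosing Müller nuclei the means of SFRP2 and PTGDS stayed higher after AAV and that of AK5 lower. For ALDOC the vehicle mean was 1.01 to 1.09 times the AAV mean in 4 of them and 1.57 times without the filter on mitochondrial RNA.

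Nuclei of like depth brought the scales together. Among Müller nuclei of 2000 to 4000 UMIs, SFRP2 was at 742 and 910 CPM after AAV and at 1750 and 1343 CPM after vehicle, and PTGDS was at 358 and 430 against 540 and 601 CPM. The log2 ratios of means were -0.90 for SFRP2, -0.53 for PTGDS, -0.91 for ALDOC and -5.44 for AK5. Among nuclei of 4000 to 8000 UMIs they were -0.70, -0.34, -1.04 and -4.96. All 4 genes were lower after AAV in both ranges, with at least 136 nuclei per retina in the first range and 383 in the other. The share of all genes lower in both AAV-injected retinas was not computed within these ranges. It was 31.5% over Müller nuclei of all depths. In the first range AK5 had 8 UMIs in 378 nuclei of AAV-injected retina 1 and 0 UMIs in 136 nuclei of retina 2, against 760 and 786 UMIs in the vehicle-injected retinas. At week 2 the same ranges gave log2 ratios of 0.21 and 0.24 for SFRP2, of 0.0045 and -0.065 for PTGDS, of -0.18 and -0.25 for ALDOC and of -0.47 in both ranges for AK5, so that the sign of PTGDS varied with the range.

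**Figure D2:**
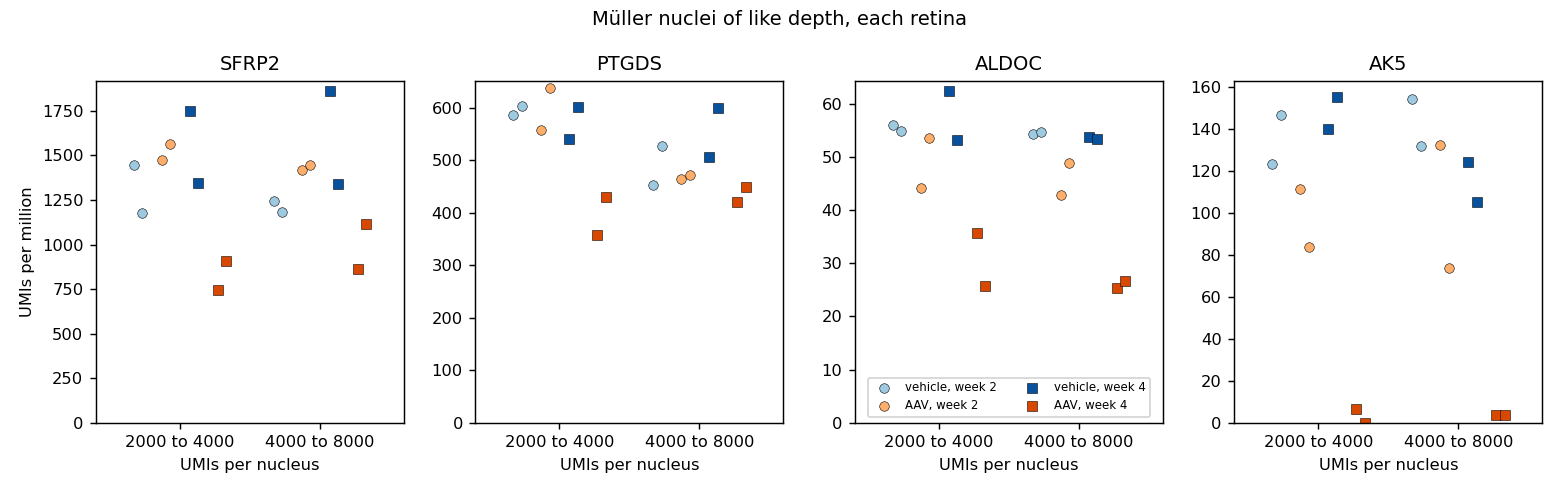
CPM in Müller nuclei of 2000 to 4000 and of 4000 to 8000 UMIs, 1 symbol per retina, for each of the 4 genes. The AAV-injected retinas of week 4 lay below the vehicle-injected retinas of week 4 in both ranges, at 0 to 6.81 CPM for AK5. The share of all genes that lay so was not computed within the ranges.

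Fewer Müller nuclei held an AK5 UMI after AAV. At week 4 they were 1.82% and 1.54% of Müller nuclei, against 17.9% and 18.8% after vehicle. In rods of the same retinas the shares were 0.338% and 0.330% after AAV and 0.615% and 0.878% after vehicle. When each nucleus was thinned to 1000 UMIs, 0.340% ± 0.00180 (SD, n = 2) of Müller nuclei held an AK5 UMI after AAV and 10.9% ± 0.992 after vehicle, beside 0.148% ± 0.00667 and 0.408% ± 0.0630 of rods. After AAV the share of Müller nuclei with an AK5 UMI was above that of rods, by less than after vehicle. The mean AK5 level after AAV was 4.13 CPM in Müller nuclei, 5.57 in astrocytes, 3.67 in microglia and 1.80 in rods. Whether the AK5 UMIs in Müller nuclei after AAV came from these nuclei was not tested. Thinning left out 4 Müller nuclei in the AAV-injected and 631 in the vehicle-injected retinas, and 286 and 1727 rods.

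SFRP2 stayed in most Müller nuclei. It was seen in 90.3% and 94.9% of them after AAV and in 92.1% and 84.5% after vehicle, and after thinning in 57.5% ± 5.33 and 72.6% ± 7.64. PTGDS was seen in 73.4% and 76.5% against 63.1% and 63.0%, and after thinning in 31.7% ± 0.0715 and 40.4% ± 2.04. For both genes the thinned shares were lower after AAV, while the unthinned shares, taken over nuclei of unequal depth, were not. ALDOC was seen in 12.03% and 12.3% of Müller nuclei after AAV and in 14.2% and 11.6% after vehicle, and after thinning in 2.46% ± 0.828 and 6.41% ± 0.644. In rods thinned in the same way, SFRP2 was seen in 3.23% ± 0.785 and 14.3% ± 1.06, PTGDS in 2.80% ± 0.225 and 11.3% ± 0.226, and ALDOC in 1.96% ± 0.477 and 4.71% ± 0.749.

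Astrocytes were few, with 35 and 31 nuclei after AAV and 27 and 32 after vehicle at week 4. ALDOC, the astrocyte marker, was at 22.3 and 25.3 CPM after AAV, from 8 and 9 UMIs, and at 125 and 110 CPM after vehicle, from 18 UMIs in each retina. PTGDS was at 665 and 478 against 908 and 1023 CPM, and SFRP2 at 1075 and 821 against 1739 and 1029 CPM. Both AAV-injected retinas were below both vehicle-injected ones for ALDOC and PTGDS, as for 25.8% of the 5006 genes tested in astrocytes, whereas the SFRP2 groups overlapped. The log2 fold changes by edgeR were -2.25 ± 0.430 (SE) for ALDOC, -0.73 ± 0.238 for PTGDS and -0.52 ± 0.272 for SFRP2. AK5 had at most 5 UMIs in the astrocytes of a retina and was not fitted.

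Counting GFAP among the astrocyte markers, a choice made after the data were seen, gave 332 and 417 astrocyte nuclei in the 2 groups of week 4. ALDOC was then at 17.8 and 21.7 against 114 and 114 CPM, and at 0.172 and 0.231 against 0.562 and 0.577 UMIs per nucleus. SFRP2 was at 7.99 and 8.45 UMIs per nucleus after AAV and at 6.71 and 5.43 after vehicle. So in astrocytes the mean of ALDOC was lower in CPM and per nucleus with both choices of markers. That of SFRP2 was lower in CPM and higher per nucleus with both choices. With the first choice the mean of PTGDS was also higher per nucleus after AAV, at a log2 ratio of 0.29. GFAP was itself higher in Müller nuclei after AAV, and counting it left 1984 of 2066 Müller nuclei in their class after AAV and 8757 of 8804 after vehicle, so that the second choice of astrocytes depends in part on the treatment. The median astrocyte of the first choice held 9624 and 10403 UMIs after AAV and 5533 and 4776 after vehicle.

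In rods the 4 genes were lower after AAV on both scales. SFRP2 was at 36.4 and 24.3 CPM after AAV and at 164 and 150 CPM after vehicle at week 4. PTGDS was at 28.2 and 24.04 against 111 and 120 CPM. ALDOC was at 21.8 and 16.1 against 51.6 and 40.8 CPM, and AK5 at 2.26 and 1.34 against 3.94 and 6.58 CPM. The AAV-injected retinas were below the vehicle-injected ones for all 4 genes, as for 36% of the 20666 genes tested in rods. Per rod nucleus the vehicle mean was 3.93 times the AAV mean for SFRP2, 3.33 times for PTGDS, 1.85 times for ALDOC and 2.24 times for AK5. At week 2 SFRP2 was at 102 and 103 CPM in rods after AAV and at 126 and 87.3 CPM after vehicle, and the groups overlapped.

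**Figure D3:**
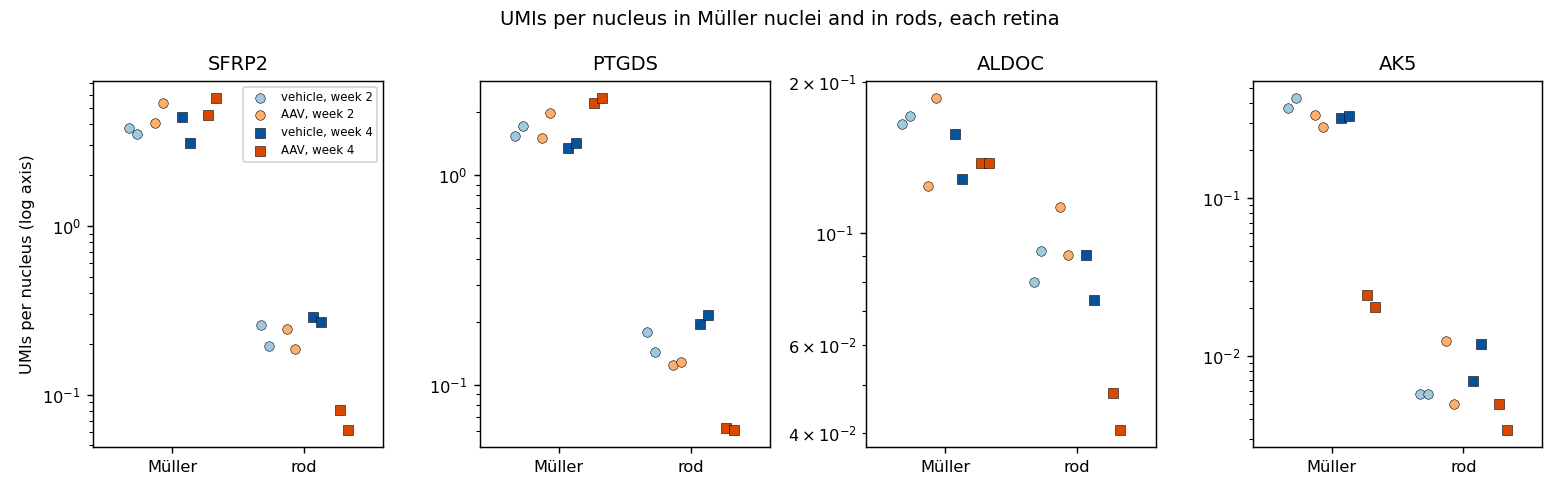
UMIs per nucleus (log axis) in Müller nuclei and rods, 1 symbol per retina, for each of the 4 genes. After AAV at week 4, SFRP2 and PTGDS were higher in Müller nuclei and lower in rods, whereas AK5 was lower in both.

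Cones and bipolar cells had values like those of rods. The log2 fold changes by edgeR in cones were -2.14 ± 0.195 (SE) for SFRP2, -1.88 ± 0.165 for PTGDS, -1.28 ± 0.187 for ALDOC and -1.65 ± 0.283 for AK5. In bipolar cells they were -2.11 ± 0.146, -1.96 ± 0.134, -0.79 ± 0.182 and -1.42 ± 0.288 in the same order. All 4 genes were lower in both AAV-injected retinas, as for 28.7% of genes tested in cones and 27% in bipolar cells. In each of these 3 neuron classes SFRP2 and PTGDS had log2 fold changes further from 0 than in Müller nuclei, a difference that was not tested.

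In immune cells SFRP2 and PTGDS were also measured. SFRP2 was at 23.6 and 25.5 CPM in microglia after AAV and at 109 and 278 CPM after vehicle, the latter from 79 and 73 nuclei. The 1229 and 995 lymphocyte nuclei of the AAV-injected retinas of week 4, cells that were too few after vehicle to compare, held SFRP2 at 55.7 and 30.4 CPM and PTGDS at 59.6 and 35.8 CPM. These levels were of the order of those in rods of the same retinas.

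Horizontal cells held PTGDS and AK5 at levels unlike those of rods. PTGDS was at 157 and 166 CPM after AAV and at 491 and 367 CPM after vehicle, between the levels of rods and of Müller nuclei in both groups. SFRP2 was at 13.5 and 9.36 against 49.8 and 41.7 CPM. AK5 went the other way, at 53.0 and 49.6 CPM after AAV, from 102 and 90 UMIs, and at 4.93 and 10.1 CPM after vehicle, from 10 and 24 UMIs. Both AAV-injected retinas were lower for PTGDS, SFRP2 and ALDOC, as for 21.4% of the 11472 genes tested, and higher for AK5, as for 29.3%. The log2 fold changes by edgeR were -1.45 ± 0.173 (SE) for PTGDS, -2.03 ± 0.273 for SFRP2, -0.89 ± 0.219 for ALDOC and 2.69 ± 0.312 for AK5. At week 2 AK5 was at 8.18 and 20.1 against 10.7 and 2.77 CPM in horizontal cells, and the groups overlapped.

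Amacrine cells and the RPE also had more AK5 after AAV. In amacrine cells AK5 was at 79.8 and 48.5 CPM after AAV and at 31.4 and 29.4 CPM after vehicle, a log2 fold change by edgeR of 1.08 ± 0.207 (SE), with 25.3% of genes higher in both AAV-injected retinas. In the RPE it was at 251 and 388 against 93.5 and 103 CPM, from 48 and 12 nuclei after AAV, and 19.2% of genes with at least 10 UMIs were higher in both AAV-injected retinas there. Mean PTGDS was also higher in the RPE, at 428 CPM after AAV and 234 CPM after vehicle, a log2 ratio of 0.87. For PTGDS both AAV-injected retinas lay above both vehicle-injected ones there, whereas the SFRP2 and ALDOC groups overlapped. In ganglion cells AK5 was at 48.6 and 38.5 against 43.5 and 30.3 CPM, so that the groups overlapped. The other 3 genes were lower in amacrine cells, at log2 fold changes of -1.23 ± 0.161 for SFRP2, -1.496 ± 0.144 for PTGDS and -0.93 ± 0.148 for ALDOC, with 23.6% of genes lower in both AAV-injected retinas. In ganglion cells, where 29.4% of genes were lower in both, they were at -1.58 ± 0.430, -1.76 ± 0.302 and -1.08 ± 0.186.

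**Figure D4:**
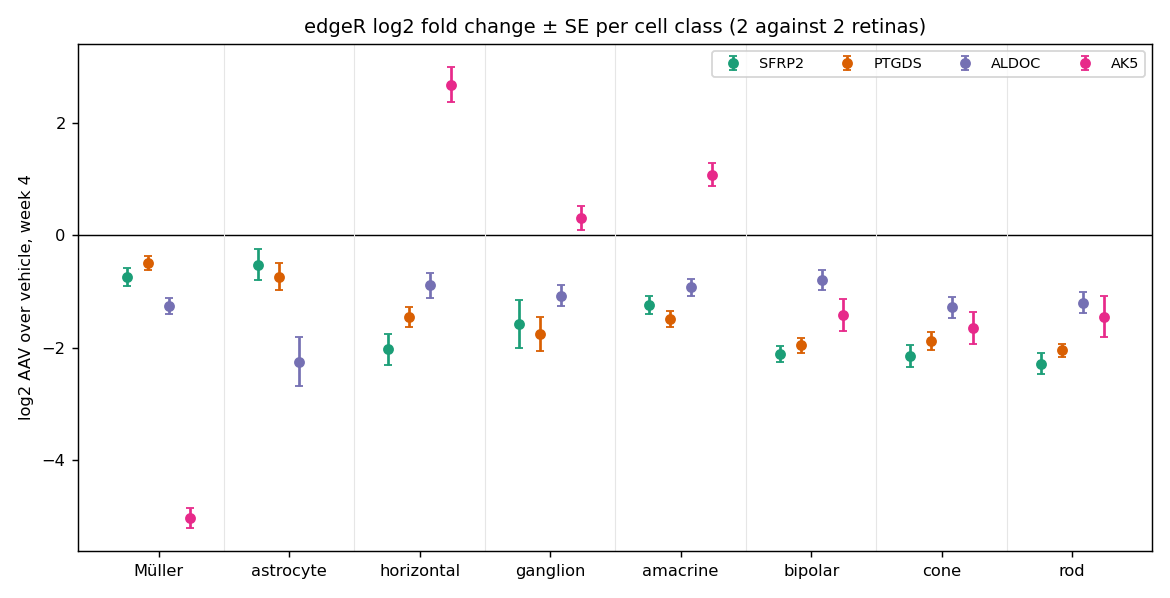
Log2 fold change of AAV over vehicle at week 4 by edgeR with its standard error, by cell class, for the 4 genes over 2 against 2 retinas. AK5 ran from -5.03 in Müller nuclei to 2.69 in horizontal cells, whereas SFRP2, PTGDS and ALDOC were below 0 in all 8 classes drawn. The RPE, endothelial nuclei, and mural and fibroblast nuclei were not fitted.

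Over the classes that were fitted, 8 for SFRP2, PTGDS and ALDOC and 7 for AK5, both AAV-injected retinas of week 4 were below both vehicle-injected ones in 7 classes for SFRP2, in 8 for PTGDS, in 8 for ALDOC and in 4 for AK5, and above them in 2 classes for AK5. The share of all genes lower in both AAV-injected retinas ran from 21.4% in horizontal cells to 36% in rods. Over 12 classes, fitted or not, the counts lower at week 4 were 9, 10, 10 and 5 in the same order. PTGDS was higher in 1 class, the RPE, and AK5 in 3. The lowest share of all genes lower was then 19.6%, in mural and fibroblast nuclei. At week 2, over the fitted classes, both eyes of the AAV-injected animal were lower in 0 classes and higher in 1 for SFRP2. For PTGDS they were lower in 4 and higher in 1, and for ALDOC lower in 1 and higher in 3. For AK5 they were lower in 1 and higher in 2. The share of all genes lower in both of these eyes ran from 16.7% in ganglion cells to 25.3% in Müller nuclei. That of genes higher ran from 18% in astrocytes to 38.8% in amacrine cells. Outside these counts, mean SFRP2 at week 2 was 745 CPM after AAV and 257 CPM after vehicle in endothelial nuclei. In mural and fibroblast nuclei it was 397 and 153 CPM. No share over all genes was computed for these classes at week 2. At week 4 mean SFRP2 in endothelial nuclei was 372 CPM after AAV and 1108 CPM after vehicle. Both AAV-injected retinas were lower there, as for 22.8% of genes with at least 10 UMIs. In mural and fibroblast nuclei of week 4 it was 273 and 258 CPM, and the groups overlapped.

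The share of a gene's UMIs that lay in Müller nuclei depends on the number and depth of these nuclei as well as on the gene. In the vehicle-injected retinas of week 4, Müller nuclei held 48.6% ± 1.59 (SD, n = 2) of all SFRP2 UMIs, 33.3% ± 1.11 of PTGDS, 12.7% ± 0.122 of ALDOC and 46.2% ± 0.197 of AK5. After AAV they held 38.8% ± 2.74, 26.1% ± 6.98, 5.03% ± 2.22 and 1.30% ± 0.404. For AK5 amacrine cells held the largest share after AAV, with 46.8% ± 3.58 of its UMIs, against 13.3% ± 0.443 after vehicle. Over the whole retina, SFRP2 was at 0.341 and 0.195 UMIs per nucleus after AAV and at 0.847 and 0.728 after vehicle. PTGDS was at 0.219 and 0.139 against 0.398 and 0.465 UMIs per nucleus, so that the whole-retina level of both was lower in both AAV-injected retinas, as were 15.6% of the 29403 genes with at least 10 UMIs.

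The rod level was also set beside the Müller level of the same retina, a ratio that moves with the depth of the nuclei of both classes. SFRP2 in a rod was 1.42% ± 0.496 (SD, n = 2) of that in a Müller nucleus after AAV and 7.65% ± 1.55 after vehicle, in UMIs per nucleus. For PTGDS the ratio was 2.71% ± 0.157 and 14.8% ± 0.634. The ratio was thus 5.39 times as high after vehicle for SFRP2 and 5.48 times for PTGDS. In CPM, SFRP2 in rods was 3.31% ± 1.40 of the Müller level after AAV and 10.1% ± 1.27 after vehicle, and PTGDS 6.24% ± 0.848 and 19.7% ± 0.690, factors of 3.05 and 3.16, so that the rod level was lower against the Müller level after AAV on both scales. For ALDOC the ratio was 32.2% ± 3.98 and 57.4% ± 0.0699 per nucleus, but 74.4% ± 14.9 and 76.5% ± 6.04 in CPM, where the groups overlapped. For AK5 it was higher after AAV, at 18.5% ± 2.83 against 2.86% ± 0.993 per nucleus and at 42.9% ± 9.84 against 3.76% ± 1.03 in CPM, with the lower Müller level.

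Other genes known in glia gave ratios over a wide range. Over 14 reference genes the median ratio of rods to Müller nuclei was 4.32% after AAV and 10.8% after vehicle in UMIs per nucleus, and 9.98% and 14.3% in CPM. The factors that follow are per nucleus, with a median of 2.57, while in CPM the median factor was 1.45. HES1, a target of Notch, had a ratio 8.69 times as high after vehicle, DKK3, a secreted relative of the Dickkopf Wnt inhibitors, 5.16 times, SPARC, a matrix protein, 4.51 times, and HEPACAM, an adhesion protein of glia, 4.50 times. CLU and VIM were at 3.20 and 3.60 times, and APOE, CST3 and ID3 at 1.62, 1.44 and 1.85 times. NDRG2 was at 0.739 times, ATP1B2 at 1.77 times and CD9 at 3.14 times. MLC1 and ACSBG1, without a Müller UMI in 1 AAV-injected retina, stood at 0.748 and 2.00 times. The AAV ratio of these genes came from the other retina alone, also in the medians over the 14 genes. Not all reference genes are particular to glia, as the rod level of ATP1B2 was 119.8% of the Müller level after vehicle.

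**Figure D5:**
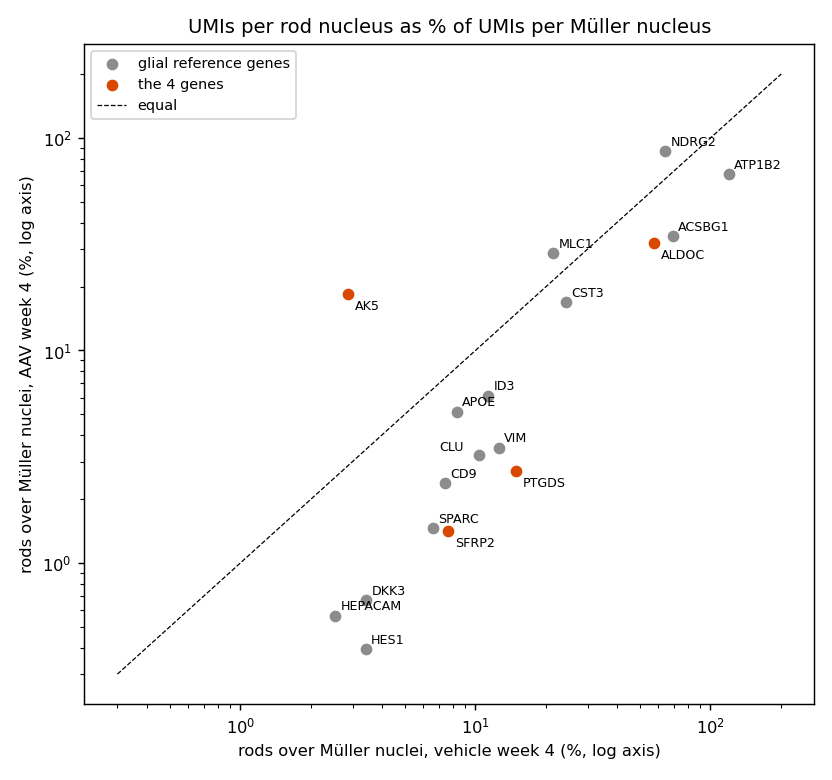
UMIs per rod nucleus as a percent of UMIs per Müller nucleus at week 4, vehicle on the x axis and AAV on the y axis (both log), for the 4 genes in orange and 14 glial reference genes in grey, means of 2 retinas. SFRP2, PTGDS and ALDOC lay under the line of equal ratios and AK5 above it, at 2.86% and 18.5%, whereas in CPM, not drawn, ALDOC was at 76.5% and 74.4%.

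Set against the mean over all nuclei of a retina, the rod level moved less. SFRP2 in rods was 23.6% and 31.5% of the whole-retina mean per nucleus after AAV and 34.0% and 37.0% after vehicle. PTGDS was at 28.6% and 43.8% against 48.8% and 46.5%. The whole-retina mean also moves with the shares of the classes, such as rods at 45.0% of nuclei after AAV and 27.4% after vehicle. The share of all genes lower on this ratio was not computed. The rod level and the retina's mean were both lower after AAV. The Müller level of both genes was higher per nucleus. It was lower in CPM, at log2 fold changes of -0.74 for SFRP2 and -0.49 for PTGDS, and among nuclei of like depth. Müller markers were also lower in rods after AAV. Their summed level over 10 markers was 24.5 and 17.2 CPM after AAV and 98.4 and 128.5 CPM after vehicle. None of the markers was at 0. In rods 36% of the 20666 genes tested were lower in both AAV-injected retinas. The same markers placed nuclei as Müller. A barcode with its best scores for rod and Müller was left unassigned where these differed by less than 2. The part of this placing in the marker sums was not tested. The part of free RNA in these values was not tested.

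The level that a rod held of a gene also depended on its depth. In each retina rods were split by UMIs into 3 parts of equal number, and the deepest part had a median depth 1.92 to 2.34 times that of the shallowest. SFRP2 per nucleus was 1.24 to 4.01 times as high in the deepest part, with a median of 1.58 over the 8 retinas, and PTGDS 1.22 to 2.87 times, with a median of 1.36. SAG, the rod arrestin, was 1.99 to 2.32 times as high with a median of 2.14. The median was 1.77 for ALDOC, 4.16 for AK5, 1.68 for APOE and 2.68 for the Müller marker RLBP1. By the median, SFRP2, PTGDS, ALDOC and APOE thus differed less with depth than the rod's own gene, and AK5 and RLBP1 more.

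Rod RNA in Müller nuclei was measured in the same way. The summed level of 10 rod markers in Müller nuclei was 666 and 623 CPM after AAV and 1432 and 1470 CPM after vehicle, and per nucleus it was 3.58 and 3.42 against 3.53 and 3.34 UMIs. Markers of microglia summed to 29.9 and 30.5 against 32.2 and 26.4 CPM over 9 markers, of which 1 or 2 were at 0, and per nucleus to 0.161 and 0.167 against 0.0794 and 0.0599 UMIs. Markers of astrocytes summed to 20.6 and 19.6 against 34.8 and 25.7 CPM over 7 markers, of which 1 to 4 were at 0. Their part in the levels of the 4 genes was not tested.

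In the AAV-injected retinas, Müller nuclei with an EGFP UMI could be set beside those without one, a split the choice of genes did not use. In Müller nuclei PTGDS was lower with EGFP in each of the 4 AAV-injected retinas, as were 6.94% of the 7985 genes with at least 50 UMIs in nuclei with EGFP, by log2 ratios of -0.29 and -0.14 at week 2 and of -0.18 and -0.16 at week 4, where the counting intervals of nuclei with and without EGFP overlapped. In horizontal nuclei PTGDS was higher with EGFP in each of the 4, as were 7.79% of 6008 genes, by 0.55 and 0.47 at week 2 and by 0.88 and 0.22 at week 4, the last with overlapping intervals. In amacrine nuclei PTGDS was at -0.63 and 0.0014 at week 2 and at -0.60 and -0.68 at week 4, and AK5 at -0.25 and 0.49 and at 0.69 and 0.99. In Müller nuclei SFRP2 had ratios of 0.11 and 0.01 at week 2 and of 0.12 and -0.25 at week 4, so its direction varied. Müller nuclei with EGFP numbered 223 and 487 at week 2 and 106 and 41 at week 4. They came from 3 animals, too few for an exact paired test to pass, and no test was made. ALDOC had ratios of -0.34 and 0.15 at week 2 and of -0.59 in retina 1 of week 4, and AK5 of -0.26 and 0.17 at week 2 and of 1.22 in retina 1 of week 4, the last from 6 UMIs in nuclei with EGFP. Müller nuclei with EGFP had a median of 2987 and 3997 UMIs at week 2 against 2456 and 3528 in those without, and of 5905 and 5198 against 5170 and 5466 at week 4. The mean PTGDS level of the AAV-injected retinas was 643, 597 and 468 CPM from the shallowest to the deepest of 3 ranges of depth at week 2, and 365, 394 and 435 CPM at week 4. The part of depth in these ratios was not tested.

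The genes whose levels ran most like those of the 4 genes differed for each. Likeness was the Pearson correlation of log2(CPM + 1) over 88 sums of 8 retinas and 11 classes, which share their libraries and depth, among 14427 genes. SFRP2 was most like COL5A1 (r = 0.93), ADAMTS19 (0.93) and KDR (0.93). PTGDS was most like NHSL1 (0.86), FGFR1 (0.85) and SLC4A5 (0.84), and AK5 like VEGFA (0.84), AIFM3 (0.83) and ABAT (0.75). ALDOC had no close match, its highest correlations being with SYCP2 (0.69), DEUP1 (0.64) and GABPB2 (0.63).

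Genes of the pathways of the 4 genes were counted by list among the calls in Müller nuclei at week 4, where 21.4% of 17230 genes passed an adjusted p of 0.05 in edgeR's quasi-likelihood test with Benjamini-Hochberg adjustment, 10.7% as lower and 10.7% as higher. Of 31 Wnt genes tested, 9 fell and 4 rose, with a median log2 fold change of -0.10 beside -0.01 over all genes. NKD1, an inhibitor that Wnt signaling induces, was at 10.4 and 5.29 CPM after AAV and at 31.0 and 36.9 CPM after vehicle (log2 fold change -2.02 ± 0.269 SE, edgeR adjusted p = 0.00276). APCDD1, another inhibitor of the pathway, was at 1.89 and 0.933 against 4.84 and 4.97 CPM (-1.65 ± 0.376, edgeR adjusted p = 0.0212). LGR5, a receptor for R-spondins, was at 1.63 and 0.622 against 3.58 and 4.11 CPM (-1.57 ± 0.438, edgeR adjusted p = 0.0413). WNT5A, a Wnt ligand, was at 21.2 and 28.3 CPM after AAV and at 11.8 and 8.99 CPM after vehicle (1.22 ± 0.225, edgeR adjusted p = 0.00982). The receptors FZD5 and FZD6 rose by 1.02 ± 0.170 (edgeR adjusted p = 0.00655) and 0.75 ± 0.209 (edgeR adjusted p = 0.0412).

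Of 13 prostaglandin genes tested, 2 rose and 1 fell. PLA2G4A, the phospholipase that releases arachidonic acid, was at 33.4 and 40.7 CPM after AAV and at 12.6 and 12.9 CPM after vehicle (1.51 ± 0.177, edgeR adjusted p = 0.00151). TBXAS1, the thromboxane synthase, was at 21.4 and 11.5 against 0.871 and 1.34 CPM (3.92 ± 0.391, edgeR adjusted p = 7.78e-04). TBXAS1 is also a gene of myeloid cells, and microglia made up 1.85% ± 0.420 of kept nuclei after AAV and 0.179% ± 0.00227 after vehicle at week 4 (two-sided exact permutation test, p = 0.33, n = 2 each). The part of microglial RNA in the level of TBXAS1 was not tested. SLCO2A1, the prostaglandin transporter, was at 1.13 and 0.311 CPM after AAV and at 5.23 and 4.30 CPM after vehicle (-2.45 ± 0.465, edgeR adjusted p = 0.0109).

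Of 25 genes of glycolysis and its control tested beside ALDOC, 9 fell and none rose, with a median of -0.41 beside -0.01 over all genes. The median of this list was -0.65 in astrocytes, -0.47 in ganglion cells, -0.33 in rods and -0.29 in cones. In amacrine, bipolar and horizontal cells it was -0.27, -0.23 and 0.23. Genes of the lists were not compared among Müller nuclei of like depth. HK2, a hexokinase, was at 13.6 and 7.46 CPM after AAV and at 40.8 and 27.2 CPM after vehicle (-1.62 ± 0.290, edgeR adjusted p = 0.00886). PDK4 and PDK2, kinases that hold pyruvate dehydrogenase inactive, fell by 1.29 ± 0.158 (edgeR adjusted p = 0.00190) and 1.28 ± 0.163 (edgeR adjusted p = 0.00221). Of 31 genes of adenine nucleotides tested beside AK5, 5 fell and 1 rose. PRKAG2, a regulatory subunit of the AMP-activated kinase, was at 78.6 and 63.4 CPM after AAV and at 199.95 and 199.98 CPM after vehicle (-1.49 ± 0.131, edgeR adjusted p = 4.45e-04). AK1, another adenylate kinase, was at 1.76 and 2.18 against 4.74 and 4.59 CPM (-1.30 ± 0.334, edgeR adjusted p = 0.0317). NME1, a nucleoside diphosphate kinase, fell by 1.17 ± 0.243 (edgeR adjusted p = 0.0152), while AK7 rose by 1.06 ± 0.280 (edgeR adjusted p = 0.0351). Without the filter on low counts 7 Wnt genes, 5 of glycolysis and 2 of adenine nucleotides passed in either direction. With the stricter margin 5 genes of glycolysis passed. Of the adenine nucleotide genes, 2 passed by DESeq2, 3 with Müller markers that leave out homeostasis genes and 2 without vehicle-injected retina 2. Of the 12 reference genes tested, 5 fell and 2 rose.

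In rods, where 13.1% of 20666 genes passed, 7.25% as lower and 5.83% as higher, 6 of 38 Wnt genes fell and none rose. Of 27 genes of glycolysis 6 fell and none rose, of 17 prostaglandin genes 2 fell and 1 rose, of 32 genes of adenine nucleotides 4 fell and 1 rose, and of 13 reference genes 3 fell. Of the genes named, AK1, NME1, AK7, APCDD1, LGR5 and FZD6 no longer passed under 2 or 3 of the 8 other settings that keep all retinas (of 7 for LGR5). The Müller calls rest on both AAV-injected retinas of week 4. Without retina 1 no gene in Müller nuclei passed by edgeR, though 4240 had an unadjusted p under 0.05, and without retina 2 none passed and 4585 had one. Without vehicle-injected retina 1 or retina 2, 3587 and 3380 genes passed in Müller nuclei, of which 2933 and 2830 were among the 3690 that passed with all retinas. In rods 557 and 298 passed, of which 531 and 285 were among the 2704 with all retinas.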

How the data were processed

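Nuclear RNA of 8 retinas was measured by single-nucleus RNA sequencing with 10x 3' chemistry. The authors mapped reads on Sscrofa11.1 plus EGFP, counted with Cell Ranger 8.0.0 per the labels, and deposited raw UMI counts of filtered barcodes without normalization, 4 lanes per retina, which were joined here. Groups were taken from the labels. The 4 genes, the gene lists and the markers were chosen with earlier results of these data known, and the members for their fall between AAV and vehicle.

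Damaged nuclei were removed by a 2-component mixture of mitochondrial share against detected genes (13 mitochondrial genes, posterior 0.75). A nucleus was placed in the class whose markers most exceeded what its total predicted (score at least 2, margin 2, at least 2 markers seen). Müller nuclei with a PAX2 UMI were left out of the class. No doublet caller was run. The margin left a barcode unassigned where the scores of its best class and the next differed by less than 2. Barcodes with markers of more than 1 class could therefore still be placed in a class. The median depth per retina was 1994 to 3128 UMIs per barcode, and UMI intervals, computed at 95% as exact Poisson or binomial, cover counting error only.

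Counts were summed per retina and class. For week 4, edgeR 4.0.16 (R 4.3.3) was fitted per class to 2 against 2 retinas over all genes with TMM scaling, its filter on low counts and the quasi-likelihood test, and p-values were adjusted by Benjamini-Hochberg. The p-values measure the spread between these samples alone. The fit was tested on simulated counts, and the result of that test is not given here. Genes named are the 4 members in classes with at least 50 nuclei in every group (astrocytes, with 40 at week 2 after AAV, and lymphocytes are outside this rule and were added after their values were seen), the 3 most alike genes for each among those of at least 100 UMIs, the reference genes (1 of which is not reported here), and of each list the 3 higher and 3 lower genes with the largest change among those that passed in Müller nuclei. Alternatives covered DESeq2 1.42.0, scaling, the filter on low counts, the filter on nuclei, the margin, the Müller markers, a minimum of 1000 UMIs, single eyes, vehicle animals of both weeks, thinning and, added after the data were seen, GFAP as an astrocyte marker and ranges of depth.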

Additional observations from a re-analysis of the deposited data

Results flagged for a closer look

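AK5 went in opposite directions in horizontal cells and in Müller nuclei at week 4. The log2 ratio of mean CPM, AAV over vehicle, was 2.77 in horizontal cells, with both AAV-injected retinas above both vehicle-injected ones, and -5.07 in Müller nuclei, with both below. In amacrine cells the same ratio for AK5 was 1.08, again with both AAV-injected retinas above. The difference between the classes was not tested.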

How the results depend on the processing

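No paired analysis was possible because the labels give no replicate numbers that the groups share, and the week 4 animals differ between the groups. Of 258 values recomputed for the 4 genes, the class shares and the list counts, 214 stayed within the spread between replicates, or within 1.5 times for a count, 37 moved further and 7 changed sign. At week 4 this spread was between 2 animals per group, and at week 2 between the 2 eyes of 1 animal per arm. The cause of these changes was not tested. At week 2, with vehicle animals of both weeks, SFRP2 in Müller nuclei was at -0.0078 and AK5 in rods at -0.14 (log2), where the week 2 vehicle alone gave 0.22 and 0.56. In right eyes only, SFRP2 and PTGDS in rods were at 0.25 and 0.14, with the Müller gate without homeostasis genes SFRP2 in rods was at 0.0014, and with a stricter margin PTGDS in Müller nuclei was at 0.024. The astrocyte share at week 4 differed by 0.012 percentage points under that margin.

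The other values that moved were these. With the Müller gate without homeostasis genes, AK5 in Müller nuclei was at -5.36, PTGDS there at week 2 at -0.075 and the adenine nucleotide list had 3 calls. Without the mitochondrial filter, PTGDS and ALDOC in Müller nuclei were at -0.63 and -1.86, the log2 change of the rod to Müller ratio of ALDOC at -0.50, and 6 reference genes were called in rods. With the stricter margin, PTGDS and ALDOC in astrocytes were at -0.29 and -2.02, the PTGDS ratio at -2.30, the Müller and rod shares differed by -4.22 and 7.59 points, and 5 genes of glycolysis in Müller nuclei and 1 prostaglandin gene in rods were called. With GFAP counted, PTGDS and ALDOC in astrocytes were at -0.24 and -2.49. By depth, a choice made after the data were seen, PTGDS in Müller nuclei was at -0.81 at 1000 to 2000 UMIs, where retina 2 held 12 nuclei, and at -0.34 at 4000 to 8000, ALDOC at -0.91 at 2000 to 4000 and -1.04 at 4000 to 8000, and AK5 at -5.44 at 2000 to 4000. At week 2, vehicle animals of both weeks put PTGDS in Müller nuclei at -0.10 and SFRP2 and ALDOC in rods at -0.45 and 0.14, and left eyes put PTGDS in rods at -0.77. With bipolar cells in place of rods, ALDOC in Müller nuclei less the neuron differed by 0.019 UMIs per nucleus. Thinned to 2000 UMIs, the shares of Müller nuclei with ALDOC and AK5 differed by -5.41 and -16.9 points. Without a filter on low counts, calls in Müller nuclei were 7 Wnt, 5 glycolysis, 2 adenine nucleotide and 2 reference genes, and in rods 12, 10 and 6 for Wnt, glycolysis and reference genes. With library size only, 5 reference genes were called in rods. DESeq2 called 2 adenine nucleotide genes in Müller nuclei. Over all genes, 3690 passed in Müller nuclei, 1805 without the filter on low counts and 2421 by DESeq2, and in rods 2704 passed and 4423 without that filter.

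Leaving out each week 4 retina in turn gave log2 fold changes in Müller nuclei of -0.92 to -0.55 for SFRP2, -0.60 to -0.38 for PTGDS, -1.33 to -1.18 for ALDOC and -5.20 to -4.93 for AK5. In astrocytes they ran from -0.87 to -0.08 for SFRP2, -0.95 to -0.48 for PTGDS and -2.36 to -2.12 for ALDOC. In rods they ran from -2.58 to -2.03, -2.15 to -1.95, -1.42 to -1.01 and -1.84 to -1.06 for SFRP2, PTGDS, ALDOC and AK5. Calls in Müller nuclei ran from 0 to 14 (Wnt), 0 to 4 (prostaglandin), 0 to 9 (glycolysis), 0 to 6 (adenine nucleotide) and 0 to 7 (reference), and in rods from 1 to 8, 0 to 5, 1 to 6, 0 to 5 and 1 to 4. In these fits the lone retina is assumed to vary like the other group. Of 127 recomputed results for the named list genes with no retina left out, 16 no longer passed, for AK1, NME1, AK7, APCDD1, LGR5 and FZD6.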

Other observations

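GFAP, the intermediate filament that Müller cells make when reactive, was higher after AAV in Müller nuclei, in CPM, where the 4 genes were lower, and per nucleus, where SFRP2 and PTGDS were higher too. It was at 398 and 283 CPM after AAV and at 49.8 and 128 CPM after vehicle at week 4, and was seen in 63.2% and 54.4% of Müller nuclei against 8.68% and 17.7%. Per Müller nucleus it was at 2.14 and 1.55 UMIs after AAV and at 0.123 and 0.291 after vehicle. In astrocytes placed without GFAP it was at 891 and 694 against 1199 and 1358 CPM. At week 2 its Müller level was 73.8 and 49.8 against 52.2 and 49.4 CPM, and the groups overlapped. No test was made on GFAP.

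EGFP, the transgene, was at 15.2 and 14.0 CPM in Müller nuclei after AAV at week 4 and at 24.5 and 37.7 CPM at week 2. It had 0 UMIs in the Müller nuclei of all 4 vehicle-injected retinas.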
